A study of Homo sapiens with 6 samples.

Results

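The genes described here are the EGFR family receptors EGFR, ERBB2 and ERBB3 and the ligands AREG, EREG, HBEGF, TGFA, BTC and NRG1, 9 genes chosen by symbol from the 17335 genes of the deposited table. All 9 were found in the table and all 9 passed the filter on low values (0.5 FPKM or more in 3 or more libraries), among 12258 genes tested in all. RNA came from A549, an established human lung adenocarcinoma line, grown in F12K medium with fetal bovine serum. There were 3 libraries from cells given the solvent DMSO and 3 from cells given BRQ, which is taken here to be the inhibitor of DHODH, an enzyme of pyrimidine synthesis, that the series title names. The labels give no dose, exposure time or other agent, and no label states that a group's libraries are from different cultures, so the p-values rest on a spread among libraries that may be technical.

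The receptors of this family are tyrosine kinases of the cell surface. A ligand is made as a membrane-anchored precursor, is cut free by a protease, and draws receptors together in pairs, which phosphorylate each other and start the RAS, ERK and PI3K cascades. AREG, EREG, HBEGF, TGFA and BTC bind EGFR, NRG1 binds ERBB3, and ERBB2 has no known ligand of its own and serves as the partner of the others. In lung adenocarcinoma EGFR is a well known driver of this pathway, and several of the ligand genes are themselves switched on by it.

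Library totals, inferred from the size of 1 read in the FPKM of each gene, ran from 27789225 to 29644462 reads in DMSO and from 32195353 to 34908895 reads in BRQ. Pearson correlations of log2 values over tested genes were 0.996 to 0.997 for libraries of 1 group and 0.919 to 0.927 for libraries of different groups. All 6 epithelial markers were detected, and their means moved in both directions between DMSO and BRQ. KRT7 went from 577 to 355 FPKM, whereas KRT8 went from 199 to 350.5, KRT18 from 453 to 662, KRT19 from 3.62 to 30.2, CDH1 from 1.83 to 5.77 and EPCAM from 0.737 to 3.73 FPKM. The surfactant genes SFTPA1, SFTPB and SFTPC of the alveolar type II marker list were at or near 0. ABCA3 of the same list had 6.73 and 7.06 FPKM and NAPSA 0.885 and 2.01 FPKM on average. That list summed to 7.31 to 7.98 FPKM in DMSO and 9.02 to 9.34 FPKM in BRQ. Of the markers of other cells, PTPRC for leukocytes and all 3 endothelial genes stayed under 0.5 FPKM. The summed epithelial list was 1228 to 1243 FPKM in DMSO and 1368 to 1471 FPKM in BRQ, the summed leukocyte list, nearly all CD68, 45.55 to 53.2 and 143 to 151 FPKM, and the summed fibroblast list 1.501 to 1.89 and 4.995 to 5.10 FPKM; the part of these shifts in the results was not tested.

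Of the 9 genes, 5 were called higher in BRQ (ERBB3, AREG, HBEGF, TGFA and NRG1), 3 lower (EGFR, ERBB2 and EREG) and 1 neither (BTC), at an adjusted p under 0.05 in limma. ERBB3 needed its BRQ values to pass the filter, so its upward call is tied to its selection. With the filter set to a mean of at least 1 FPKM, which left out ERBB3 and BTC, 4 were called higher. Among all tested genes 79.7% were called, 44.3% as higher and 35.4% as lower, so a call alone sets none of the 9 apart. The balance turned with the scaling, from 5425 genes higher and 4343 lower as deposited to 4655 and 5058 with median-ratio scaling and 4713 and 4959 with quantile normalization. Changes of at least 2-fold on the log2(FPKM + 0.5) scale were less frequent, at 15.4% of tested genes (10.3% higher and 5.12% lower). They were met by 3 of the 9: HBEGF and TGFA upward and EGFR downward. ERBB3 met them too with a pseudocount of 0.1 (1.175 in log2) and in limma-voom on the recovered reads (1.32). Of all tested genes, 1619 were then at least 2-fold higher and 835 lower with that pseudocount, and 1715 and 890 in limma-voom. The median log2 fold change was 0.27 over the 9 genes and 0.07 over all tested genes. The 3 BRQ values lay apart from the 3 DMSO values for 8 of the 9 genes, and for 81.4% of all tested genes.

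**Figure D1:**
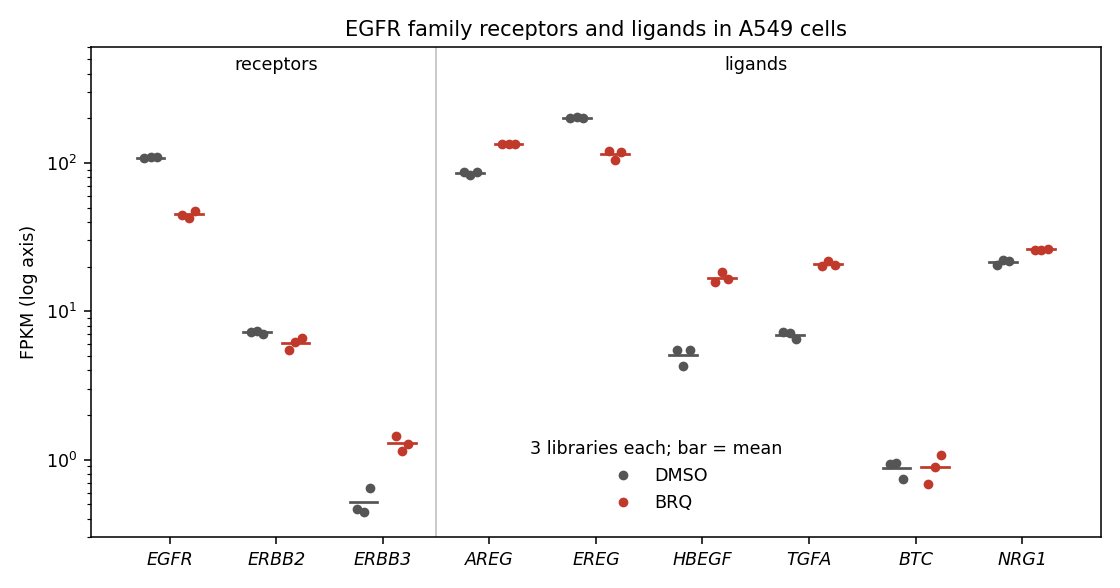
Level of each receptor and ligand in each library, in FPKM on a log axis, with DMSO in grey, BRQ in red and a bar at each group's mean. EGFR and EREG sit lower in BRQ, and AREG, HBEGF, TGFA and ERBB3 sit higher. The BTC values of the groups overlap, at 0.745 to 0.946 FPKM in DMSO and 0.688 to 1.07 FPKM in BRQ.

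EGFR, the receptor of most of these ligands, lies on chromosome 7 (55019017 to 55211628, GRCh38.p14, as for all gene positions below). Its level was 107, 110 and 109 FPKM in DMSO, against 44.9, 42.6 and 47.5 FPKM in BRQ. Every BRQ library was lower than every DMSO library, and the replicates of a group lay close together. The mean fell from 109 ± 1.44 to 44.998 ± 2.48 FPKM (SD, n = 3 libraries each), which is 2.41-fold lower, or -1.26 on the log2(FPKM + 0.5) scale (SE 0.04, limma adjusted p = 1.59e-09) on 14900 to 35417 reads per library. Only 2.64% of tested genes had a log2 fold change as low or lower, and EGFR moved from rank 497 to rank 1410 by level among tested genes. In bulk RNA, fewer cells that express a gene and less of its RNA per cell cannot be told apart.

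ERBB2, the ligand-less partner receptor on chromosome 17 (39688094 to 39728658), changed little. It had 7.24, 7.38 and 7.04 FPKM in DMSO and 5.51, 6.21 and 6.58 FPKM in BRQ. The groups did not overlap, but the gap between the lowest DMSO and the highest BRQ library was smaller than the spread within BRQ. In limma it changed by -0.23 in log2 (SE 0.07, adjusted p = 0.0117), and the adjusted p ran up to 0.0475 over the alternatives. ERBB2 shares 571 exon bases with MIEN1 and 194 with PGAP3, both on the opposite strand, and no source used here gives the strand setting of the counting.

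ERBB3, a receptor with little kinase activity of its own that signals through its partners and is a receptor for NRG1, lies on chromosome 12 (56080108 to 56103505). Its levels were 0.463, 0.446 and 0.643 FPKM in DMSO and 1.44, 1.14 and 1.28 FPKM in BRQ, on 73 to 269 reads per library. All BRQ libraries were above all DMSO libraries. The mean was 2.49-fold higher in BRQ, and the 0.81 in log2 (SE 0.12, adjusted p = 7.92e-05 in limma) is smaller than that ratio because of the pseudocount; it was 1.32 in limma-voom on the recovered reads and 0.48 after quantile normalization. ERBB3 owed its place among the tested genes to BRQ, since just 1 DMSO library reached 0.5 FPKM, and without higher BRQ values it would not have been tested.

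Per unit of length, EGFR made up most of the receptor mRNA in both groups. Its share of the summed FPKM of the 3 receptors was 93.3% ± 0.0566 in DMSO and 85.9% ± 0.658 in BRQ, while ERBB2 held 6.21% ± 0.141 and 11.7% ± 0.925 and ERBB3 0.445% ± 0.0937 and 2.46% ± 0.282 (SD, n = 3). The summed level of the receptors went from 116 ± 1.497 to 52.4 ± 2.78 FPKM. With 3 libraries against 3, an exact permutation test of such a share cannot go below p = 0.1, and none is given.

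EREG and AREG, the ligand genes with the highest FPKM in these cells, moved in opposite directions. FPKM divides by a counting length, of 1234 bases for AREG and 14626 for NRG1. By recovered reads NRG1 was above AREG, with 27073 against 9028 in DMSO and 38184 against 16525 in BRQ. EREG encodes epiregulin, a low-affinity ligand of EGFR, and lies on chromosome 4 (74365145 to 74388749). It had 201, 204 and 200 FPKM in DMSO and 121, 105 and 118 FPKM in BRQ, with every BRQ library below every DMSO library. That is 1.75-fold lower (-0.81 in log2, SE 0.05, adjusted p = 1.05e-07 in limma). BRQ replicate 2 was the lowest of the BRQ libraries.

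AREG encodes amphiregulin, a ligand of EGFR made widely by epithelia, and starts 56.4 kb after the end of EREG on the same strand (74445136 to 74455005). It had 86.3, 82.9 and 86.3 FPKM in DMSO and 133, 135 and 133 FPKM in BRQ. All BRQ libraries were higher, 1.57-fold by the means (0.65 in log2, SE 0.03, adjusted p = 1.33e-08 in limma). AREG thus stood at 0.430, 0.406 and 0.432 of the EREG level in the DMSO libraries, and at 1.10, 1.28 and 1.13 of it in the BRQ libraries. EREG was the higher of these neighbours in every DMSO library and AREG in every BRQ library. The same stretch of chromosome 4 holds EPGN, 48.4 kb before EREG, and BTC, 290 kb after AREG, both at low levels.

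HBEGF rose most of the 9 genes. It encodes the heparin-binding ligand of EGFR and lies on chromosome 5 (140332843 to 140346603). Its levels were 5.45, 4.25 and 5.46 FPKM in DMSO and 15.7, 18.4 and 16.5 FPKM in BRQ. The lowest BRQ library was well above the highest DMSO library. The means differed 3.34-fold (1.65 in log2, SE 0.09, adjusted p = 7.62e-08 in limma), and 2.93% of tested genes had a log2 fold change as high or higher.

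TGFA, the gene of transforming growth factor alpha on chromosome 2 (70447284 to 70553826), encodes a high-affinity ligand of EGFR. It had 7.30, 7.09 and 6.50 FPKM in DMSO and 20.1, 21.7 and 20.4 FPKM in BRQ, with no overlap. The mean rose 2.98-fold (1.51 in log2, SE 0.06, adjusted p = 4.32e-09 in limma). HBEGF and TGFA had overlapping levels in neither group, TGFA being the higher in each, at 6.96 ± 0.414 and 5.05 ± 0.695 FPKM in DMSO.

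NRG1, neuregulin 1, is a ligand of ERBB3, and its gene covers 1135 kb of chromosome 8 (31639245 to 32774046). Its levels were 20.6, 22.1 and 21.8 FPKM in DMSO and 26.0, 25.9 and 26.4 FPKM in BRQ. The groups did not overlap, and the difference was 1.21-fold (0.27 in log2, SE 0.04, adjusted p = 0.000104 in limma; 0.17 with median-ratio scaling). BTC, betacellulin, had 0.933, 0.946 and 0.745 FPKM in DMSO and 0.688, 0.900 and 1.07 FPKM in BRQ, on 91 to 160 reads per library. These values overlapped and the test made no call (log2 fold change 0.01, 95% interval -0.27 to 0.28, limma adjusted p = 0.965); with quantile normalization BTC was called lower (log2 fold change -0.33, adjusted p = 0.0461).

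**Figure D2:**
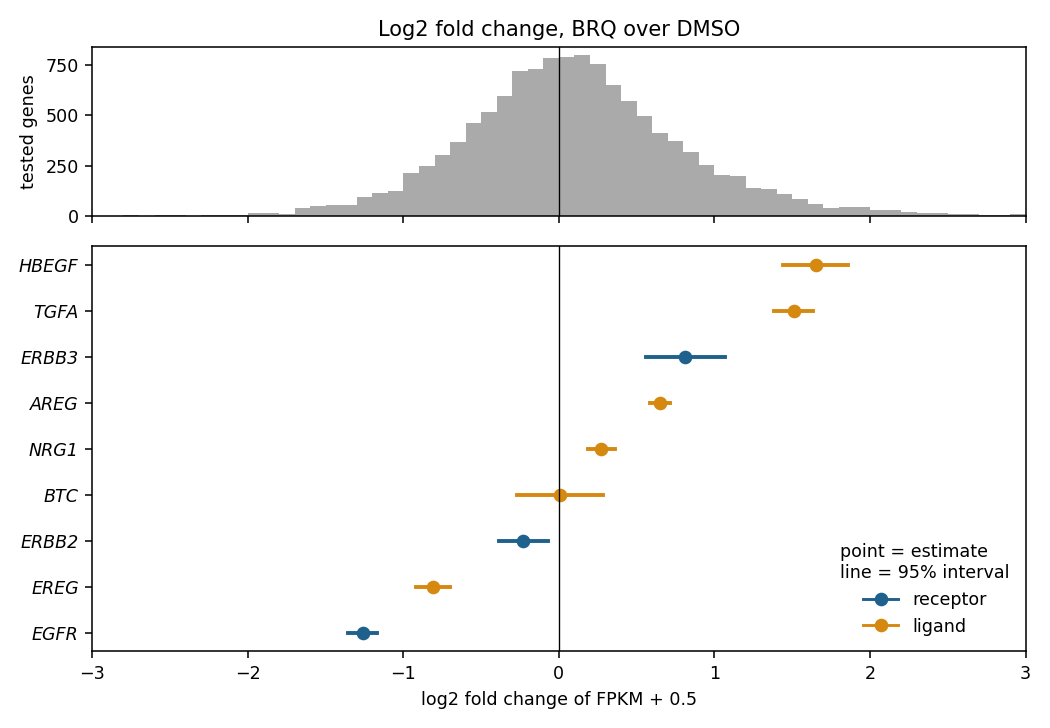
Log2 fold change of FPKM + 0.5, BRQ over DMSO, for the 3 receptors (blue) and 6 ligands (orange) with 95% limma intervals, under a histogram of all tested genes on the same axis. HBEGF (1.65) and TGFA (1.51) lie far to the right, EGFR (-1.26) far to the left, and the BTC interval covers 0.

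The order of levels in FPKM changed between the groups. In DMSO it ran from EREG through EGFR, AREG and NRG1 to ERBB2, TGFA and HBEGF, with BTC and ERBB3 last, and of neighbours in this order the ranges of ERBB2 and TGFA overlapped. In BRQ it ran from AREG through EREG, EGFR, NRG1, TGFA, HBEGF and ERBB2 to ERBB3 and BTC, and no neighbours overlapped. Summed over the 6 ligands, the level was 321 ± 0.465 FPKM in DMSO and 313 ± 5.73 FPKM in BRQ. EREG held 62.8% ± 0.647 of that sum in DMSO and 36.6% ± 2.13 in BRQ, and AREG 26.5% ± 0.629 and 42.8% ± 1.04. TGFA went from 2.17% ± 0.126 to 6.62% ± 0.401 and HBEGF from 1.57% ± 0.217 to 5.39% ± 0.552 (SD, n = 3). Relative to EGFR, the summed ligand level was 2.96 ± 0.0403 in DMSO and 6.97 ± 0.286 in BRQ. The order, shares and sums rest on FPKM, and so on counting lengths that ran from 1234 bases (AREG) to 14626 (NRG1). They are a description of mRNA, not of secreted protein.

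**Figure D3:**
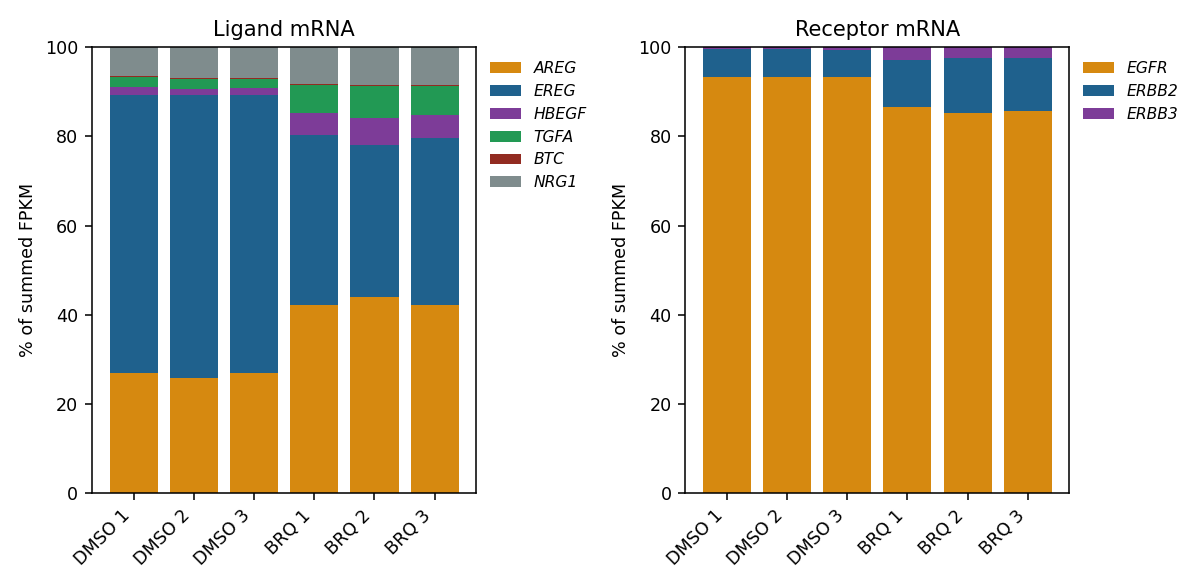
Share of each gene in the summed FPKM of the 6 ligands (left) and the 3 receptors (right), in percent, for each library. EREG is the largest ligand segment in the DMSO libraries and AREG in the BRQ libraries, and EGFR is the largest receptor segment throughout.

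Sequences just before the start sites were looked up because EREG and AREG are neighbours that moved apart, while AREG, HBEGF and TGFA rose together. RefSeq promoter entries (GRCh38.p14) were found for 7 of the 9 genes. The 150 bases before the start are printed for the 5 genes with the largest differences in mean FPKM, taking the most upstream start where there are several. They are chr7:55018867-55019016 (plus strand) for EGFR, chr4:74364995-74365144 (plus) for EREG, chr4:74444986-74445135 (plus) for AREG, chr5:140346604-140346753 (minus) for HBEGF and chr2:70553827-70553976 (minus) for TGFA. Capitals mark the TATA box letters TATAAA, the cAMP response element TGACGTCA, the AP-1 letters TGANTCA and the GC box GGGCGG, each on either strand.
EGFR: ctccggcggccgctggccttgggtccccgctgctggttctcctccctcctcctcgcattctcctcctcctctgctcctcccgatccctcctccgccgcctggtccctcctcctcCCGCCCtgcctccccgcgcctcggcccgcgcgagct
EREG: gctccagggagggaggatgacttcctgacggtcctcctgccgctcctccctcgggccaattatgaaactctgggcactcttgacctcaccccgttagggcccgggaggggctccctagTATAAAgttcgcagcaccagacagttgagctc
AREG: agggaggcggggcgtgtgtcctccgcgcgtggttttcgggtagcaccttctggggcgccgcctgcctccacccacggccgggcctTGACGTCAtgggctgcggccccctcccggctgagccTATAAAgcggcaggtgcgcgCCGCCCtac
HBEGF: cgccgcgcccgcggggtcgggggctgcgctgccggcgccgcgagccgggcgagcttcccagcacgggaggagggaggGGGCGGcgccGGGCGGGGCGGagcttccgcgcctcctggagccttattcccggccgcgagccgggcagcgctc
TGFA: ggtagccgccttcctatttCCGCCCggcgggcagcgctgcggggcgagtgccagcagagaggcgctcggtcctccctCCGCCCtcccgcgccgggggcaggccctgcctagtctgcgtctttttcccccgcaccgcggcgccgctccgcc

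Over the 250 bases before the start, EREG and AREG each hold TATAAA, with its first base at position -32 and -29, where -1 is the base before the start; 10.7% of 35116 RefSeq promoter entries hold these letters. AREG also holds the full TGACGTCA at position -65, which 1.65% of entries hold. EREG does not hold it, and neither do HBEGF and TGFA, which rose as AREG did, nor EGFR. HBEGF holds 5 GC boxes, the last 2 of which overlap, TGFA holds 3, EGFR 2 and AREG 1. EGFR and TGFA each have a second start, and neither second start holds a GC box. At least 1 GC box is found in 42.6% of entries. Entries with more than 1 were not counted, so that share is no measure for the higher counts. TGANTCA was not found in these 5 windows, and 6.57% of entries hold it. It was found at position -222 of ERBB2 and at positions -232 and -136 of the second EGFR start. That second EGFR start also holds TATAAA at positions -146 and -36. These matches describe letters in a window and not binding.

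Other members of the family were near absent or low. ERBB4, the remaining receptor, had 0 to 6 reads per library, EGF 1 to 18, EPGN 0 to 6 and NRG4 6 to 46, all under 0.5 FPKM in every library. NRG3 was looked up by symbol and was not found among the genes of the deposited table. NRG2, a neuregulin that was high enough to test only through its DMSO values, had 0.899, 0.905 and 0.892 FPKM in DMSO and 0.295, 0.395 and 0.497 FPKM in BRQ. It was 2.27-fold lower in BRQ (-0.65 in log2, SE 0.11, adjusted p = 0.000349 in limma), opposite in direction to NRG1; the log2 value was -1.03 with a pseudocount of 0.1, -1.11 with quantile normalization and -1.21 in limma-voom, and leaving out any DMSO library removed it from the test.

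Among 8 genes whose proteins release the ligands 2 rose and 1 fell, 5 had no call, and the median was -0.03 on the log2 scale, beside 44.3% higher, 35.4% lower and a median of 0.07 over all tested genes. ADAM17, the main protease that cuts AREG, EREG, TGFA and HBEGF precursors, had 27.3 ± 0.730 and 26.5 ± 0.302 FPKM, and ADAM10, which cuts BTC and EGF, 17.3 ± 0.202 and 16.96 ± 0.470 FPKM. Their log2 fold changes were -0.04 (95% interval -0.13 to 0.04) and -0.02 (-0.12 to 0.07), both named after their values were seen, and ADAM9 had 105 ± 2.26 and 103 ± 1.97 FPKM. With median-ratio scaling, under which 5 of the 8 were called lower, these 3 genes were among them, at log2 fold changes of -0.14, -0.12 and -0.13. FRMD8, which keeps ADAM17 and its iRhom partners at the cell surface, rose from 8.28 ± 0.256 to 23.0 ± 0.854 FPKM (1.42 in log2, SE 0.05, adjusted p = 2.19e-09 in limma). The rhomboid protease gene RHBDL2 rose from 0.747 ± 0.340 to 1.31 ± 0.239 FPKM (0.56 on the log2 scale) and ADAM12 fell from 1.70 ± 0.0999 to 1.29 ± 0.284 FPKM (-0.31). The RHBDL2 call ended with quantile normalization (adjusted p = 0.197) and without DMSO replicate 1 (adjusted p = 0.0520) or BRQ replicate 3 (0.0589), and the ADAM12 call without DMSO replicate 1 (0.0897) or 3 (0.0597) or BRQ replicate 1 (0.0914) or 2 (0.123).

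Of 17 genes that restrain the receptors or govern their turnover 5 rose, 7 fell and 5 were not called (median 0.03), with calls in both directions as in the whole table (44.3% higher, 35.4% lower), and with median-ratio scaling 1 rose and 8 fell. ERRFI1, an inhibitor that binds the EGFR kinase domain, rose from 66.8 ± 3.45 to 134 ± 3.50 FPKM, with 67.2, 63.1 and 70.0 FPKM in DMSO and 130, 135 and 136 FPKM in BRQ (0.996 in log2, SE 0.04, adjusted p = 7.44e-09 in limma). LRIG3 (-0.90) and LRIG2 (-0.85), members of a family of membrane proteins best known for LRIG1, and the receptor-type phosphatase PTPRJ (-0.51) fell. SH3KBP1, an adaptor in receptor uptake, had 62.9 ± 2.10 and 64.3 ± 2.68 FPKM and was not called.

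Of 25 adaptor and signal relay genes 17 rose, 4 fell and 4 were not called (median 0.18), against 79.7% called over all tested genes (44.3% higher, 35.4% lower), and with median-ratio scaling 9 rose. GRB7, an adaptor that binds ERBB2 and ERBB3, rose from 1.93 ± 0.0786 to 7.49 ± 0.439 FPKM (1.72 in log2, SE 0.07, adjusted p = 8.64e-09 in limma). STAT3, a transcription factor activated by growth factor and cytokine receptors, rose by 0.80 and the kinase gene ARAF by 0.70 on the log2 scale, whereas MAP2K2, the gene of the ERK kinase MEK2, fell from 33.8 ± 1.10 to 21.4 ± 0.842 FPKM.

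GRB7 lies 9.28 kb after ERBB2 on chromosome 17, and these neighbours, compared after their values were seen, did not move together. MIEN1, which overlaps the end of ERBB2 and ends before GRB7, rose from 12.6 ± 1.35 to 33.2 ± 0.846 FPKM (log2 fold change 1.37, limma adjusted p = 2.85e-08). With 571 exon bases shared by MIEN1 and ERBB2, and 194 by PGAP3 and ERBB2, their counts may not be separate, as the strand setting is not given. PGAP3, before ERBB2, had 1.75 ± 0.119 and 2.25 ± 0.345 FPKM (0.29), with groups that overlapped and a call that ended under 8 of the 15 alternatives, and STARD3, before it, had 11.0 ± 0.0745 and 10.7 ± 0.995 FPKM and was not called. ERBB2 was the sole one of these 5 genes that was called lower.

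Of 14 genes known to be switched on through ERK, the kinase at the end of the cascade, 7 rose, 6 fell and 1 was not called (median 0.05), a division near that of all tested genes (44.3% higher, 35.4% lower). DUSP6, the phosphatase that removes ERK activity, rose from 12.5 ± 0.332 to 38.3 ± 1.80 FPKM (1.58 in log2, SE 0.05, adjusted p = 8.19e-10 in limma). SPRY2, which encodes a feedback inhibitor of receptor signalling, fell from 22.0 ± 0.293 to 11.2 ± 0.462 FPKM, the immediate early gene EGR1 from 34.7 ± 1.01 to 16.0 ± 1.86 FPKM and the ephrin receptor gene EPHA4 from 4.99 ± 0.282 to 1.34 ± 0.167 FPKM. FOSL1, an AP-1 subunit, had 148 ± 4.43 and 150 ± 4.36 FPKM and was not called, but was called lower with median-ratio scaling (-0.085 in log2, adjusted p = 0.0485 in limma) and quantile normalization (-0.082, adjusted p = 0.0166).

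**Figure D4:**
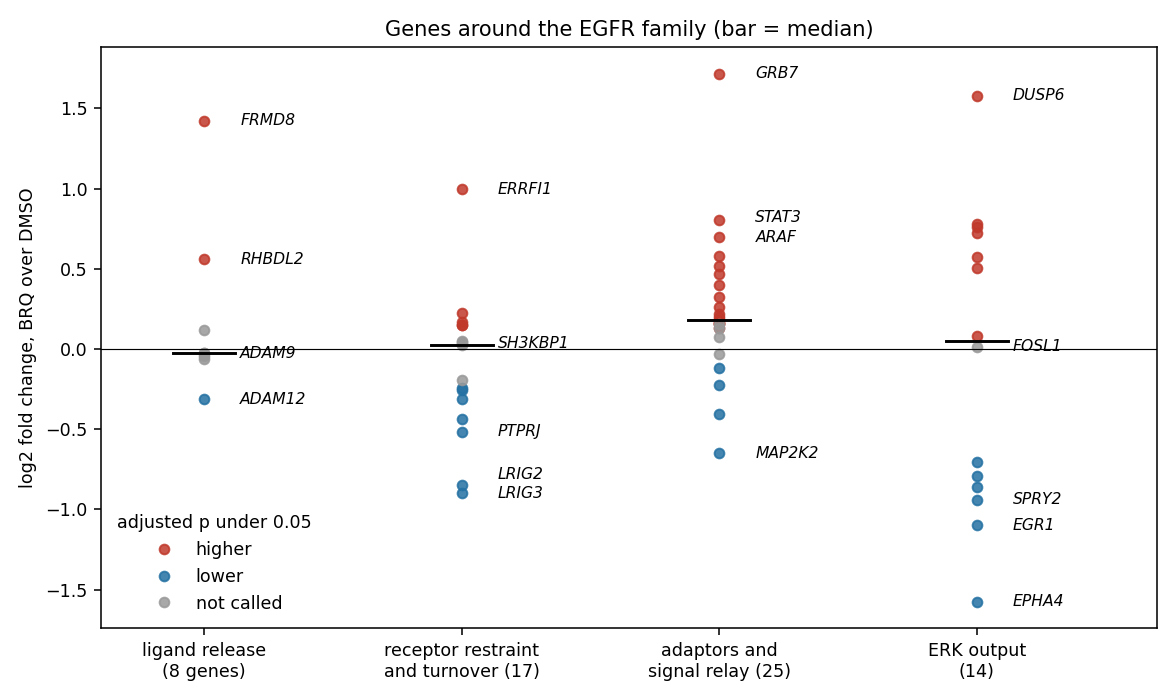
Log2 fold change, BRQ over DMSO, of each tested gene in the lists of ligand release, receptor restraint and turnover, signal relay and ERK output, coloured by the limma call, with a bar at each list's median. The medians lie between -0.03 and 0.18, and each list holds genes called in both directions.

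EGFR and NRG1 are long genes, and long genes were lower in BRQ as a class. The 198 tested genes spanning over 400 kb were at a median of -0.65 on the log2 scale, with 34 called higher and 143 lower. NRG1, at 1135 kb, was 1 of 2 genes called higher among the 18 tested genes over 1000 kb, where 13 were called lower. Among 725 tested genes of 150 to 250 kb the median was -0.19, and EGFR, with a span of 193 kb, was 1 of 38 with a log2 fold change of -1.26 or lower. TGFA, at 107 kb, rose, and genes of 80 to 160 kb had a median of -0.02. The part of gene span in the changes of these genes was not tested. NRG1 has many start sites along its span and the counts per gene do not tell which were used.

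**Figure D5:**
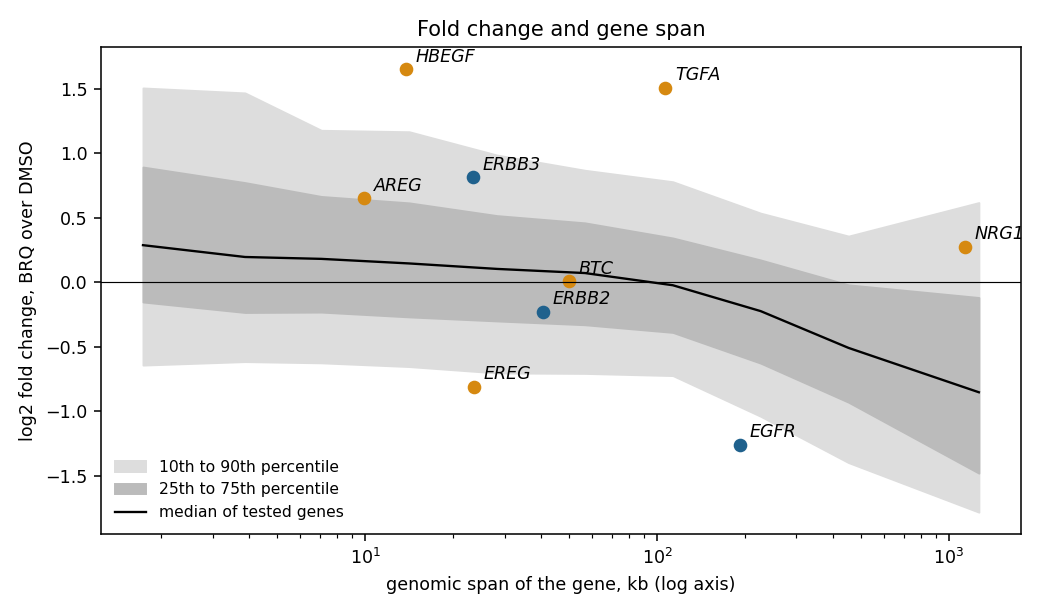
Log2 fold change, BRQ over DMSO, against the genomic span of a gene in kb on a log axis, with the 9 genes as points over the median and percentile bands of all tested genes. NRG1 lies above the 75th percentile of genes of its span, and EGFR lies below the 10th percentile.

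By distance over the 6 libraries, on log2(FPKM + 0.5) relative to the DMSO mean, the gene nearest to EGFR outside the lists was MAML3 (distance 0.0297), with a log2 fold change of -1.26. Those nearest to HBEGF were OTULINL, BEST1 and SPC24 (0.129, 0.129 and 0.163), with log2 fold changes of 1.59 to 1.68. With only 2 groups of 3 libraries, such nearness mainly reflects the size of the difference between the groups.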

How the data were processed

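RNA-seq libraries were made from A549 cells, 3 given DMSO and 3 given BRQ. The deposited table holds FPKM values, 1 column per sample; the authors scaled fragments to gene length and a library total, per its label and the size of its values. Per the submitters' processing notes, fastp, HTSeq and hg38 were used. No source used here gives the aligner, annotation, strand setting or versions. Reads were worked back from the FPKM steps, and all 17335 genes came out as whole reads within 0.01 of a read; intervals in the text cover replicate spread only.

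Log2(FPKM + 0.5) was fitted with limma 3.58.1 (R 4.3.3, eBayes with trend, group as the only term) for genes at 0.5 FPKM or more in 3 or more libraries, two-sided, Benjamini-Hochberg adjusted over all 12258 tested genes, threshold 0.05. The fit and the read recovery were run on simulated data as checks of the code only. Few genes changed in the simulation of the fit, unlike in these data, so it cannot vouch for the calls here. Python 3.11.15 made the descriptions and figures. Positions and promoters come from RefSeq GRCh38.p14 and exon overlaps from GENCODE release 29, both on the build named in the labels.

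The 9 genes and the lists around them were chosen with earlier results of these data known. Named genes were all 9, the other family members, and per list up to 4 called genes with the largest change and the uncalled gene with the highest level, plus the 3 nearest genes to EGFR and to the called member with the largest change. Genes chosen after their values were seen, and the motifs and ratios, which were too, fall outside this rule, and some genes that it names are not reported here. The fit was repeated with limma-voom on the recovered reads, with median-ratio or quantile scaling, without the trend, with replicate numbers blocked, with each library left out, with 0.1 or 1 as pseudocount, and with the filter dropped or set to a mean of 1 FPKM.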

Additional observations from a re-analysis of the deposited data

How the results depend on the processing

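The calls of EGFR, ERBB2, ERBB3, AREG, EREG, HBEGF, TGFA and NRG1 kept their direction and stayed under 0.05 in every alternative that tested them; ERBB3 and BTC were not tested with a mean FPKM of at least 1. BTC, not called as reported, turned negative with median-ratio scaling (-0.057), quantile normalization (-0.33, called), without DMSO replicate 3 (-0.064) and without BRQ replicate 2 (-0.0054) or 3 (-0.089). Over the replicates left out, BTC ran from -0.089 to 0.11. With quantile normalization 4 of the 9 genes were called lower. Median-ratio scaling moved the median log2 fold change of all genes from 0.07 to -0.02. With quantile normalization 906 genes were at least 2-fold higher and 868 lower, against 1258 and 627 as reported. Median-ratio scaling gave 9 relay genes and 1 restraint gene called higher and 5 release genes called lower; quantile normalization gave 3 restraint genes and 1 release gene called higher and 3 release genes called lower. No filter gave 1 other family member called higher and 0 release genes called lower, and a mean of at least 1 FPKM gave 0 other family members called lower. With 1 library left out, other family members called lower ran from 0 to 1, release genes called higher from 1 to 2 and lower from 0 to 1, and relay genes called lower from 2 to 4. Of uncalled genes, SH3KBP1 turned negative with median-ratio scaling (-0.068), quantile normalization (-0.069) and without BRQ replicate 3 (-0.0017; highest with a replicate left out 0.059), FOSL1 with both scalings (-0.085 and -0.082, called) and without DMSO replicate 2 (-0.0064) or BRQ replicate 2 (-0.0041; highest with a replicate left out 0.037), and STARD3 positive without BRQ replicate 3 (0.041; lowest with a replicate left out -0.080). The cause of these changes was not tested. The numbers 1 to 3 are not shown to pair the libraries, since deviations of same-numbered libraries correlated at -0.0235, -0.0083 and -0.0378; with the replicate block 5351 genes were called higher and 4278 lower, and 5 of the 9 genes higher and 3 lower. Depth limits ERBB3 and BTC most, at 73 to 269 reads per library.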
